A study of Mus musculus with 9 samples.

Results

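Kcne1, Kcnq1 and Kcnh2 encode subunits of the slow and the rapid delayed rectifier potassium channels of the heart. They were taken by gene symbol from a table of read counts, in which each of them has 1 row, so that the set holds 3 of 15824 genes. The counts come from 9 RNA libraries of mouse cardiomyocytes, the contracting cells of the heart, all from the CD-1 outbred strain. There were 3 libraries at postnatal day 1 (P1), 3 at day 14 (P14) and 3 at day 56 (P56). Each library pools 12 hearts at P1 and 6 to 7 hearts at P14 and P56, so that a value is a mean over animals, and the labels call the 3 libraries of an age biological triplicates. All libraries were depleted of ribosomal RNA. No genotype or drug distinguishes the groups. The labels share 1 text of protocols across ages, which describes digestion of ventricles with enrichment of myocytes and also sorting of nuclei by Pcm1, a protein of cardiomyocyte nuclei. It also speaks of surgery, which no group's own label gives. None of the sources used here says which isolation each library had, so the values below are transcript levels of a library, whether of cells or of nuclei.

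An action potential in a heart cell ends when potassium leaves through channels that open late, the delayed rectifiers. KCNQ1 forms the pore of the slow current, IKs. KCNE1, a protein with a single membrane span that makes no pore itself, joins KCNQ1, slows its opening and enlarges its current. KCNH2, also called ERG1 or hERG, forms the pore of the rapid current, IKr. Loss of any of these genes is a known cause of inherited long QT syndrome in people. Both currents are known best from large mammals and from the fetal and newborn mouse heart, while the adult mouse ventricle repolarises mainly through other voltage-gated potassium channels.

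The coding sequence shows which of the 3 genes can line a pore. Kcnq1 and Kcnh2 carry the codons of the selectivity filter, the narrow part of the pore that lets potassium through, and no such motif was found in Kcne1. The stretches are written 5′ to 3′ from the GENCODE M21 transcripts on GRCm38. Capitals mark the selectivity filter in Kcnq1 (codons 311 to 315 of transcript Kcnq1-201) and in Kcnh2 (codons 626 to 630 of Kcnh2-201). In Kcne1 capitals mark codons 57 to 59, the place in the membrane span studied for its control of how fast KCNQ1 opens.
Kcnq1: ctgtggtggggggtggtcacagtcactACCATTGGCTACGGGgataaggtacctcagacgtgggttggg
Kcnh2: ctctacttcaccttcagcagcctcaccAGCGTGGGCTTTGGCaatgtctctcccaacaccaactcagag
Kcne1: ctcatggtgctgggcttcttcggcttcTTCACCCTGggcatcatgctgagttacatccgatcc
The Kcnq1 stretch lies at chr7:143184528-143191473 on the plus strand, where an intron interrupts it. The Kcnh2 stretch lies at chr5:24325528-24325596 and the Kcne1 stretch at chr16:92348751-92348813, both on the minus strand and each within 1 exon.

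Kcne1 (ENSMUSG00000039639) spans 13.49 kb of chromosome 16, from 92345982 to 92359468, and codes for only 129 residues in either of its 2 annotated transcripts. Kcnq1 (ENSMUSG00000009545) spans 320.68 kb of chromosome 7, from 143106362 to 143427042, with 668 codons in Kcnq1-201. Kcnh2 (ENSMUSG00000038319) spans 32.02 kb of chromosome 5, from 24319589 to 24351604. Of its transcripts, 2 code for protein. The longer, with 1162 codons, and the shorter, with 820 codons, start at different sites and share the filter shown above. A count per gene adds them together. In the table, the only annotated gene overlapping any of the 3 is Kcnq1ot1, the antisense RNA that starts inside Kcnq1 and covers 121 exonic bases of it, or 3.0% of its exons. The sources used here do not say whether counting was by exon or whole gene, or used strand. How far reads of Kcnq1 and Kcnq1ot1 are mixed in their counts is therefore not known. Counted by exon, only those 121 bases would be shared.

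Library totals ran from 36619799 to 58538025 counts. All 10 cardiomyocyte markers examined, such as Myh6 and Tnnt2, were measured at every age, with a summed CPM (counts scaled to library size with edgeR's TMM factors) of 52000 to 61900 in the P1 libraries, 60400 to 92800 in those of P14 and 55400 to 79200 in those of P56. Most of that sum was Ttn, at a mean of 31900, 44400 and 43200 CPM, and Ryr2, at 17400, 19200 and 16200 CPM. The sum therefore describes mainly these genes. Markers of fibroblasts, endothelium, leukocytes, vessel wall and epicardium, 45 of 49 of which were tested, had a summed CPM of 445 to 669 in newborn libraries, 670 to 1750 in P14 libraries and 156 to 314 in adult ones. Their mean log2 CPM, called the marker score here, was above both other ages in every P14 library. In part of what follows this score was added to the model. Because the score goes with age, such a fit cannot fully tell cell content from age. A call lost in it does not show a cause. The fit covered 15817 genes, all 3 channel genes among them. With edgeR's quasi-likelihood test at a Benjamini-Hochberg adjusted p under 0.05, 28.4% of genes were higher and 27.5% lower at P14 than at P1. At P56, 27.5% were higher and 28.5% lower than at P14, and 30.9% were higher and 31.7% lower than at P1. Scaling by library totals alone moved the median gene by -0.13, -0.11 and -0.24 in these comparisons on the log2 scale, and changed the split of genes from 4493 higher and 4350 lower to 3573 and 5435 for P14 against P1, from 4356 and 4504 to 3151 and 5343 for P56 against P14, and from 4888 and 5016 to 3290 and 6986 for P56 against P1.

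Kcne1, the accessory subunit, was present in newborn and 14-day libraries and nearly absent at 56 days. At P1 its level was 40.9, 42.3 and 36.5 CPM in the 3 libraries. At P14 it was 22.8, 26.8 and 24.0 CPM. At P56 it was 0.226, 0.344 and 0.557 CPM. All libraries of an age lay below all libraries of the age before it, and no pair of ages overlapped. The P56 values rest on 10, 15 and 25 reads, 50 in all, against 6843 reads at P1 and 2756 at P14. Their exact 95% Poisson intervals, which cover counting error only, were 0.109 to 0.417, 0.193 to 0.568 and 0.36 to 0.822 CPM. Even the upper ends lay far below the lowest P14 library.

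**Figure D1:**
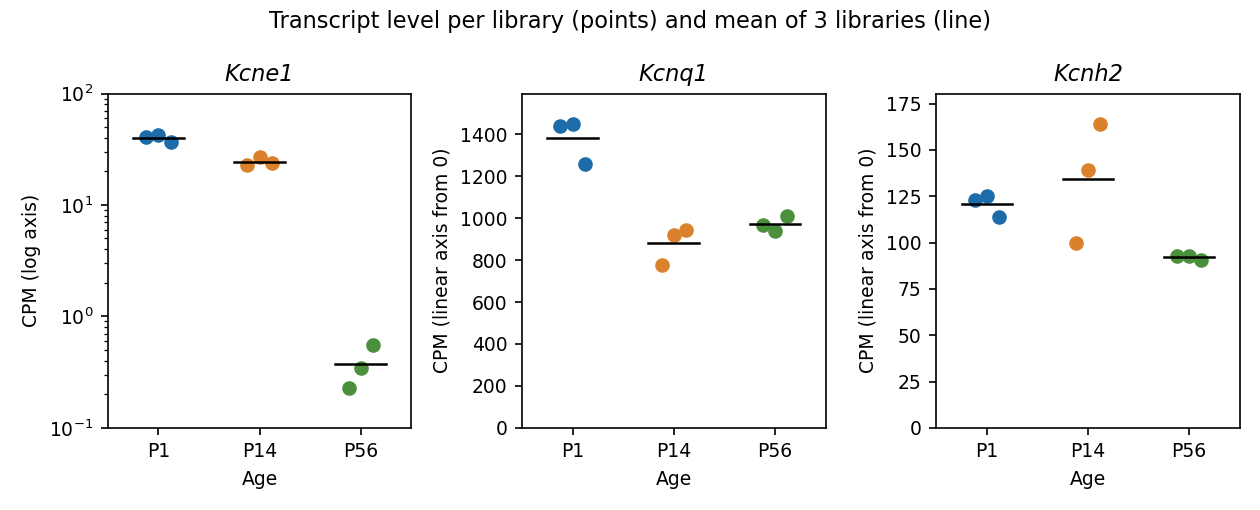
Level of Kcne1 (log axis), Kcnq1 and Kcnh2 (linear axes from 0) in CPM, with 1 point per library and a line at the mean of the 3 libraries of each age. Kcne1 goes from a mean of 39.9 CPM at P1 to 24.6 at P14 and 0.376 at P56, while Kcnq1 and Kcnh2 are at or above 776 and 90.5 CPM in every library.

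The mean of Kcne1 was 39.9 ± 3.06, 24.6 ± 2.03 and 0.376 ± 0.167 CPM at P1, P14 and P56 (SD, n = 3 at each age). From P1 to P14 it fell by 0.70 ± 0.14 (log2 change and SE; edgeR's quasi-likelihood test, adjusted p = 0.00204). From P14 to P56 it fell by 6.02 ± 0.23, which is 64.7-fold (edgeR, adjusted p = 1.07e-07). Across the whole period the fall was 6.72 ± 0.23, or 105-fold (edgeR, adjusted p = 7.23e-09). The change in the later interval was lower than in the earlier one by a log2 difference of -5.32 ± 0.31 (edgeR, adjusted p = 2.93e-06), where 26.0% of all genes had a difference below 0 that passed the test and 24.1% one above 0. The later interval is the longer one, and the difference is per interval, not per day. With the marker score in the model the early fall was -0.46 and no longer passed (edgeR, adjusted p = 0.09), and the late one was -6.37 (edgeR, adjusted p = 2.41e-07). In bulk libraries such as these, fewer cells with a transcript and less of it per cell cannot be told apart.

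KCNE1 is also known from atrial and conduction cells, so markers of these were measured beside it. All 7 atrial markers were measured, and their sum ran from 28.6 to 38.8 CPM in P1 libraries, from 26.4 to 46.8 in P14 libraries and from 19.6 to 38.3 in P56 libraries. The protocol text has the atria taken off adult hearts. From P14 to P56, 6 of the 7 fell, where 28.5% of all genes did. Among them Bmp10, an atrial growth factor, was at 0 in the P56 libraries. The one with no call, Nppa, was at 31.6, 14.9 and 15.3 CPM in the P56 libraries and made up most of their sum. Of 8 pacemaker and conduction markers 6 were measured, with a sum of 150 to 171 CPM in P1 libraries, 122 to 183 in P14 libraries and 89.3 to 156 in P56 libraries. The largest part of that sum was Cacna1g, a T-type calcium channel, at a mean of 135, 130.0 and 27.6 CPM. The range of both sums at P56 overlapped that at P14, whereas the Kcne1 ranges did not. The part of these cells in the fall of Kcne1 was not tested.

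Kcnq1, the pore of the slow current, remained at a high level at all ages and fell only between P1 and P14. Its level was 1440, 1450 and 1260 CPM in the P1 libraries. At P14 it was 776, 920 and 946 CPM. At P56 it was 968, 937 and 1010 CPM. Every P1 library lay above every later one, and the P14 and P56 libraries overlapped.

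The mean of Kcnq1 was 1380 ± 106, 880 ± 91.6 and 972 ± 37.7 CPM at P1, P14 and P56 (SD, n = 3 at each age). It fell by 0.65 ± 0.09 from P1 to P14 (log2 change and SE; edgeR, adjusted p = 0.000213). From P14 to P56 the change was 0.14 ± 0.09 (edgeR, adjusted p = 0.196), so that these neighbours in the order of ages did not differ beyond their spread. At P56 the level was lower than at P1 by 0.51 on the log2 scale (-0.51 ± 0.09; edgeR, adjusted p = 0.000676). The 2 intervals differed by 0.80 ± 0.15 (edgeR, adjusted p = 0.00241), a difference that was 0.25 with the marker score in the model (edgeR, adjusted p = 0.495). Adjusting each library for GC content, which is 56.9% in Kcnq1 against a median of 49.2% over the tested genes, made the P14 to P56 change a rise of 0.47 (edgeR, adjusted p = 0.000801), and with the marker score it was -0.18 (edgeR, adjusted p = 0.393).

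Kcnq1ot1 is the long RNA read from the opposite strand of Kcnq1 on the paternal chromosome, known for silencing neighbouring genes of the imprinted domain. Its level was 100.0, 104 and 99.1 CPM at P1. At P14 it was 122, 113 and 118 CPM. At P56 it was 96.5, 108 and 113 CPM. It moved opposite to Kcnq1 between the first ages, with a rise of 0.22 ± 0.07 (edgeR, adjusted p = 0.017), which did not pass with library totals alone (0.09; edgeR, adjusted p = 0.323) or without P1 replicate 1 or 3. The later change was -0.15 ± 0.07 (edgeR, adjusted p = 0.075; -0.46 with GC adjustment and -0.26 with library totals alone, edgeR adjusted p = 0.00112 and 0.0119) and that over the whole period 0.07 ± 0.06 (edgeR, adjusted p = 0.386).

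Kcnh2, the pore of the rapid current, was lower at P56 than at both earlier ages, and from P1 to P14 its change did not pass the test. Its level was 123, 125 and 114 CPM at P1. At P14 it was 99.7, 139 and 164 CPM. At P56 it was 92.7, 92.7 and 90.5 CPM. The P14 libraries spread from below the P1 range to above it, whereas the P56 libraries lay close together and below all others.

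The mean of Kcnh2 was 120.0 ± 5.84, 134 ± 32.4 and 92.0 ± 1.27 CPM at P1, P14 and P56 (SD, n = 3 at each age). The change from P1 to P14 was 0.16 ± 0.14 (log2 change and SE; edgeR, adjusted p = 0.368). From P14 to P56 it fell by 0.55 ± 0.14 (edgeR, adjusted p = 0.00904), and from P1 to P56 it fell by 0.39 ± 0.14 (edgeR, adjusted p = 0.0374). The intervals differed by -0.70 ± 0.25 (edgeR, adjusted p = 0.0361). All 3 genes passed the test of any difference among ages, as 78.0% of all genes did, with an adjusted p of 2.14e-08 for Kcne1, 0.00021 for Kcnq1 and 0.0156 for Kcnh2 (edgeR).

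The fall of Kcnh2 from P14 to P56 passed without any 1 of the 9 libraries, while its other results changed with single libraries, and all of them changed with the correction for GC content, which is 61.3% in this gene. Without P14 replicate 1, the lowest at that age, Kcnh2 rose from P1 to P14 by 0.33 (edgeR, adjusted p = 0.00332), and without P14 replicate 3, the highest, the value was -0.01 (edgeR, adjusted p = 0.946). The P1 to P56 fall was lost without any 1 library other than P14 replicates 1 and 3 (-0.43 to -0.36), and the interval difference without any other than P14 replicate 1 (-0.73 to -0.37, against -1.05 without that replicate). With GC adjustment the P14 to P56 change was -0.03 (edgeR, adjusted p = 0.817), the P1 to P56 change -0.18 (edgeR, adjusted p = 0.187) and the interval difference 0.11 (edgeR, adjusted p = 0.681). P14 replicate 1 had the highest marker score of all libraries, 3.73, and P14 replicate 3 the lowest of its age, 2.49. With that score in the model the rise to P14 was 0.55 (edgeR, adjusted p = 0.0161). The part of cell content and of GC in the spread of Kcnh2 was not tested beyond these fits.

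**Figure D2:**
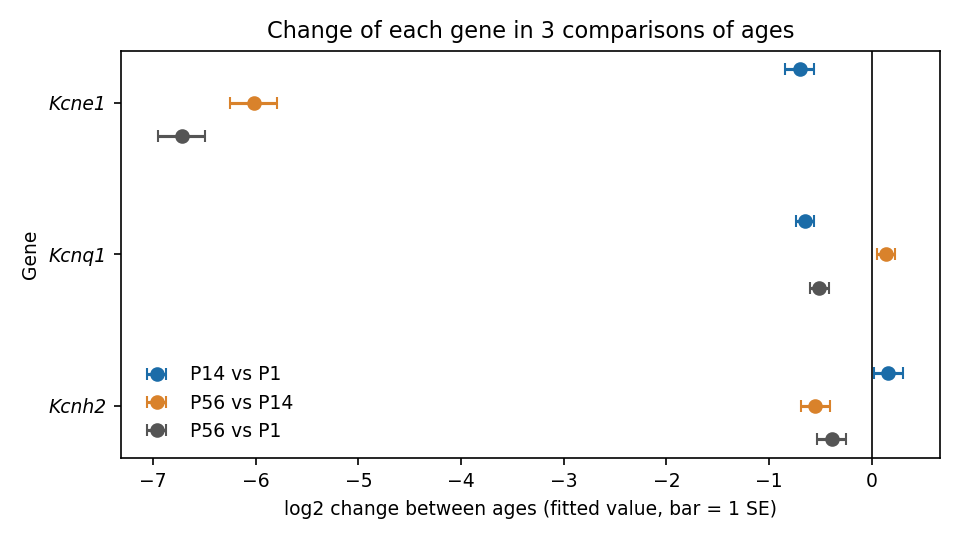
Fitted log2 change (horizontal axis) of each gene in the 3 comparisons of ages, with bars of 1 SE. Kcne1 at P56 lies at -6.02 against P14 and -6.72 against P1, and all other changes lie between -0.70 and 0.16.

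The transcripts of the 3 genes were also set against each other within a library, where the scaling between libraries cancels. Reads of Kcne1 per kb of exon were 3.6%, 3.72% and 3.68% of those of Kcnq1 in the P1 libraries. At P14 they were 3.75%, 3.71% and 3.24%. At P56 they were 0.0298%, 0.0468% and 0.0701%. The P1 and P14 libraries overlapped, with a difference of -0.04 in the mean log2 ratio, and the P56 libraries lay apart from both. The ratio fell by 6.27 on the log2 scale from P14 to P56, or 77.3-fold. Over the 3 ages an exact permutation F test gave p = 0.0321 (adjusted over the 3 ratios 0.0321, smallest p possible 0.00357). The F statistic takes any difference among the ages, without direction. Kcne1 and Kcnq1 thus each decreased from P1 to P14 while their ratio moved by less than the spread of the P14 libraries (SD 0.12 on the log2 scale).

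Kcne1 against Kcnh2 went down over both intervals. The Kcne1 level per kb was 50.3%, 51.2% and 48.3% of that of Kcnh2 at P1. At P14 it was 34.5%, 29.0% and 22.1%. At P56 it was 0.368%, 0.56% and 0.928%. No ages overlapped, and the mean log2 ratio changed by -0.83 and then by -5.61 (exact permutation p = 0.00357, adjusted 0.0107). That raw p is the smallest this design can give.

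Kcnh2 against Kcnq1, the pores of the rapid and the slow current, was highest at P14. The level of Kcnh2 per kb was 7.17%, 7.27% and 7.61% of that of Kcnq1 at P1. At P14 it was 10.9%, 12.8% and 14.7%. At P56 it was 8.09%, 8.36% and 7.55%. All P14 libraries were above all others, and P1 and P56 overlapped. The mean log2 ratio rose by 0.79 and then fell by 0.66 (exact permutation p = 0.00714, adjusted 0.0107).

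**Figure D3:**
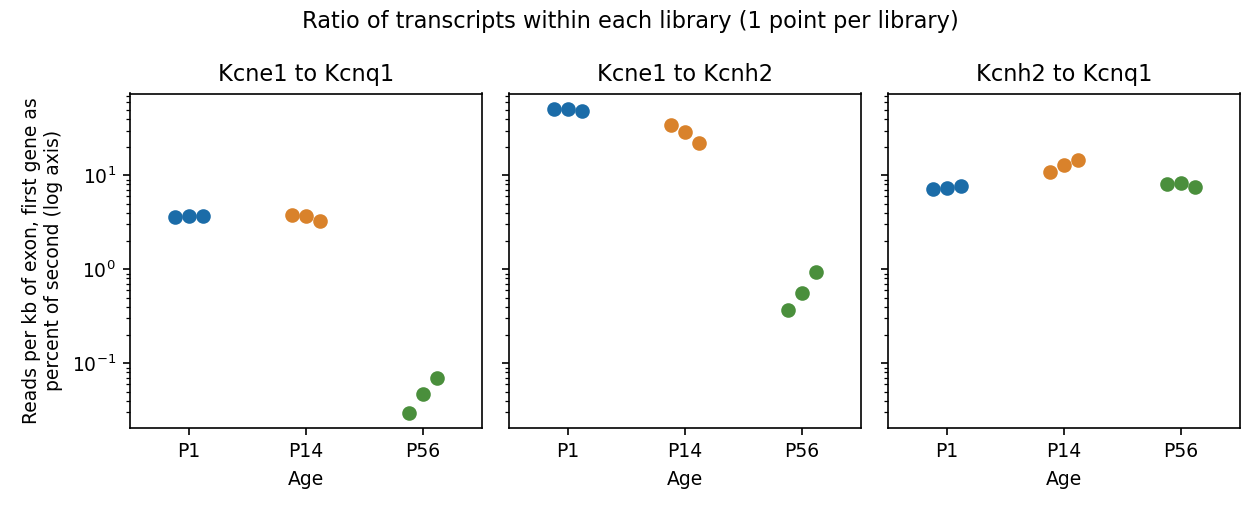
Reads per kb of exon of the first gene as a percent of the second (log axis), with 1 point for each of the 3 libraries of an age. Kcne1 to Kcnq1 lies between 3.24% and 3.75% in the 6 younger libraries and between 0.0298% and 0.0701% at P56.

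On the scale of CPM per kb of exon (RPKM), the order of the 3 genes was the same at each age. Kcnq1 was highest with 338 ± 26.0 RPKM at P1, 215 ± 22.4 at P14 and 238 ± 9.21 at P56 (SD, n = 3). Kcnh2 followed with 24.8 ± 1.2, 27.7 ± 6.69 and 19 ± 0.261 RPKM. Kcne1 was lowest with 12.4 ± 0.951, 7.64 ± 0.631 and 0.117 ± 0.0521 RPKM. The order depends on the length taken. Per kb of the whole gene, introns included, Kcnq1 had a mean of 4.32, 2.74 and 3.03, Kcnh2 3.76, 4.19 and 2.87, and Kcne1 2.96, 1.82 and 0.0279. On that scale Kcnh2 was above Kcnq1 at P14, so the distance between the pore genes is not settled while the counting mode is not given. Kcne1 was the lowest on both scales, and the changes of a ratio with age do not depend on length.

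KCNE1 belongs to a family of small accessory subunits, and Kcne1 was the only one of these with a row in the table. Kcne2, Kcne3, Kcne4 and Kcne5 (Kcne1l) were not analysed here. Of the Kv7 pore family to which Kcnq1 belongs, Kcnq5 and Kcnq3 fell over both intervals. Kcnq5, which forms an M-type potassium current in nerve and smooth muscle, fell from a mean of 574 CPM at P1 to 123 and then 61.0, by 2.22 ± 0.09 (edgeR, adjusted p = 1.39e-07) and 1.02 ± 0.09 (edgeR, adjusted p = 2e-05). Kcnq3, a neuronal subunit, went from 2.78 to 1.13 and 0.557 CPM, a fall of 1.29 ± 0.30 and then of 1.02 ± 0.34 (edgeR, adjusted p = 0.00464 and 0.0262). The later fall of Kcnq3 was lost without either of P14 replicates 1 and 2 and without P56 replicate 2 or 3, and with the marker score in the model its value was 0.42 (edgeR, adjusted p = 0.611).

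Of the ether-à-go-go family to which Kcnh2 belongs, 4 of 8 genes were tested. From P1 to P14, 2 rose and 1 fell, from P14 to P56 all 4 fell, and from P1 to P56 0 rose and 3 fell, with median log2 changes of 0.86, -2.25 and -0.87, against 0.00, -0.02 and -0.03 over all genes. Of all genes, 28.4% rose and 27.5% fell in the first comparison, 28.5% fell in the next and 31.7% in the last. The other 3 of the family were weakly counted. Kcnh7, a second gene of the ERG type, fell from 8.73 to 1.57 and 0.256 CPM, by 5.08 ± 0.56 in all (edgeR, adjusted p = 1.64e-05). Kcnh1 went from 1.01 to 3.0 and 0.393 CPM and Kcnh8 from 0.126 to 0.962 and 0.257 CPM, both called up and then down by edgeR (adjusted p = 0.00383 and 0.000219 for Kcnh1, 0.00137 and 0.00982 for Kcnh8). Both genes were highest at P14, where the marker score was highest too, so age and score cannot be told apart here. With that score in the model none of these 4 changes passed the test. The values were 0.1 and -0.88 for Kcnh1 and 0.74 and 1.07 for Kcnh8. In that model only Kcnh2 of the family remained lower at P56 than at P14, as 2323 of all 15817 genes were. Kcnh7 had -2.16 (edgeR, adjusted p = 0.176).

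**Figure D4:**
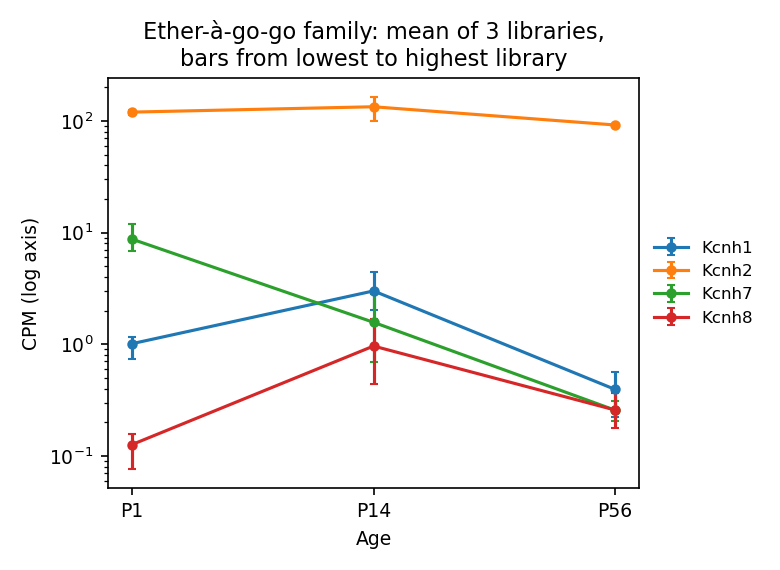
Mean level in CPM (log axis) at each age of the 4 measured genes of the ether-à-go-go family, with bars from the lowest to the highest of 3 libraries. Kcnh2 is at or above 90.5 CPM in every library, and the means of Kcnh7, Kcnh1 and Kcnh8 lie below 10 CPM.

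Other delayed rectifier genes carry much of the repolarising current of the adult mouse ventricle. Kcna5 (Kv1.5), which carries a rapidly activating current in mouse ventricle, had few reads, with a mean of 0.636, 2.29 and 0.265 CPM at P1, P14 and P56. Its rise of 1.85 ± 0.50 to P14 (edgeR, adjusted p = 0.0106) was -0.35 with the marker score in the model (edgeR, adjusted p = 0.523), and its fall of 3.10 ± 0.59 to P56 (edgeR, adjusted p = 0.00129) was -0.14 (edgeR, adjusted p = 0.911). Kcna6 followed the same course, from 0.347 to 1.58 and 0.113 CPM, and lost both calls in the same way (0.34 and -1.24). Kcnc1, a subunit of fast channels of neurons, went from 0.0629 CPM at P1 to 4.23 at P56 (5.99 ± 0.56; edgeR, adjusted p = 1.82e-06), on 11 reads at P1 and 561 at P56. Kcna7 rose from 0.188 to 1.42 CPM (2.91 ± 0.41; edgeR, adjusted p = 0.000121). Kcnab3, an accessory beta subunit, fell from 0.916 to 0.3 CPM by P14 (-1.62 ± 0.50; edgeR, adjusted p = 0.017), a call that was lost with the marker score (-0.24; edgeR, adjusted p = 0.801) and without P1 replicate 1.

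The KCNQ1 channel is regulated by cAMP through a complex in which AKAP9 (yotiao) holds protein kinase A, a phosphatase and a phosphodiesterase beside it. Of 16 genes of this complex and of its turnover, 6 rose and 6 fell from P1 to P14, 5 rose and 6 fell from P14 to P56, and 5 rose and 7 fell from P1 to P56, with median changes of 0.02, -0.08 and -0.14. Over all genes, 28.4% rose and 27.5% fell in the first of these comparisons, 27.5% and 28.5% in the next and 30.9% and 31.7% over the whole period, and nothing particular to the list is read from its counts. Pde4d, the cAMP phosphodiesterase of the complex, had a mean of 1560, 3030 and 8810 CPM at P1, P14 and P56, and rose by 2.5 ± 0.10 in all (edgeR, adjusted p = 3.7e-08). Akap9 was at 273, 260.0 and 356 CPM and was higher at P56 than at P14 by 0.45 ± 0.07 (edgeR, adjusted p = 0.000324; 0.22 and 0.192 with the marker score). Ppp1ca, a catalytic subunit of the phosphatase PP1, went from 14.2 to 7.93 and 4.89 CPM, with changes of -0.84 ± 0.14 and -0.70 ± 0.14 (edgeR, adjusted p = 0.00065 and 0.00238; the later -0.15 with the marker score). Prkar2b, a regulatory subunit of protein kinase A, fell by 2.38 ± 0.40 from P14 to P56 (edgeR, adjusted p = 0.000672; -0.5 with the marker score). Usp2, a deubiquitinase that raises KCNQ1 at the membrane, rose by 0.87 ± 0.13 to P14 (edgeR, adjusted p = 0.000344), and its later rise of 0.46 ± 0.13 (edgeR, adjusted p = 0.0123) was -0.23 with the marker score. Sgk1, a kinase known to increase the slow current, was at 1.74, 7.98 and 1.27 CPM, and its changes of 2.19 ± 0.38 and -2.65 ± 0.40 (edgeR, adjusted p = 0.00101 and 0.000446) did not pass with the marker score (0.6 and -0.43). In the same model, 3 rose and 5 fell of the 16 from P1 to P14, and 2 rose and 2 fell from P14 to P56. That model called 3900 of all 15817 genes higher and 3930 lower from P1 to P14, and 2446 and 2323 from P14 to P56. Without the score these were 4493 and 4350, then 4356 and 4504.

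KCNH2 matures slowly in the endoplasmic reticulum and depends on chaperones. Of 16 listed genes for its folding, trafficking and turnover 15 were tested: 2 rose and 5 fell from P1 to P14, 6 rose and 4 fell from P14 to P56, and 4 rose and 7 fell from P1 to P56, with median changes of -0.05, 0.05 and -0.16. The same holds here, beside 28.4% of all genes higher and 27.5% lower for the first comparison, 27.5% and 28.5% for the next, and 30.9% and 31.7% for the last. The cochaperone gene Dnaja1 fell by 1.27 ± 0.23 and the chaperone gene Hsp90aa1 by 1.18 ± 0.28 from P1 to P14 (edgeR, adjusted p = 0.00131 and 0.0056; the latter -1.0 and 0.0857 with the marker score). Dnaja2 rose over both intervals, by 0.57 ± 0.08 each (edgeR, adjusted p = 0.000263 and 0.000287; the later 0.24 with the marker score). Stub1, the ubiquitin ligase CHIP that sends immature KCNH2 to degradation, rose by 0.58 ± 0.17 and then fell by 0.69 ± 0.17 (edgeR, adjusted p = 0.0147 and 0.00624), and neither passed with GC adjustment (0.28 and -0.2). Rnf207, a ubiquitin ligase that raises KCNH2 at the membrane, fell by 0.71 ± 0.16 from P14 to P56 (edgeR, adjusted p = 0.00472). Alg10b, which modulates the drug sensitivity of KCNH2 currents, rose by 0.73 ± 0.12 in that interval (edgeR, adjusted p = 0.000848). Once the marker score was added to the model, 3 of the 15 rose and 5 fell from P1 to P14, and 3 rose and 3 fell from P14 to P56. Of all 15817 genes, that model called 3900 higher and 3930 lower in the first comparison, and 2446 and 2323 in the next.

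Kcnq1 lies in an imprinted domain of chromosome 7. Of 11 listed genes 7 were tested, with 1 rising and 4 falling from P1 to P14, 0 and 4 from P14 to P56, and 0 and 6 from P1 to P56. The share of all genes that fell was 27.5%, 28.5% and 31.7% in these comparisons, and the list is too short for more than its counts. The one with no call over the whole period was Kcnq1ot1. With the marker score in the model, 1 rose and 2 fell to P14, and none passed from P14 to P56 in either direction, while the count over the whole period was again 0 and 6. In that model, 3900 of all 15817 genes were higher and 3930 lower at P14 than at P1. From P14 to P56, 2446 were higher and 2323 lower, and from P1 to P56, 4998 and 5028. The nearest gene in the table, Trpm5, lies 11.7 kb away, encodes a calcium-activated cation channel and fell by 2.95 ± 0.42 from P1 to P56 on 93 reads at P1 and 9 at P56 (edgeR, adjusted p = 5.9e-05). Cdkn1c, a growth-restraining imprinted gene 31.3 kb beyond the other end, was at 1.0, 1.5 and 0.318 CPM and fell by 1.65 ± 0.54 from P1 to P56 (edgeR, adjusted p = 0.0208), a call lost without P1 replicate 3 and without P56 replicate 2 or 3. Its fall from P14 to P56 was 2.23 ± 0.54 (edgeR, adjusted p = 0.00534). Once the marker score was added its value had the opposite sign, 0.53, and did not pass (edgeR, adjusted p = 0.571). Tssc4 fell by 1.36 ± 0.19 over the period (edgeR, adjusted p = 0.00018). Of the 6 nearest genes, Trpm5, Tssc4, Cd81, Cdkn1c, Nap1l4 and Cars, 5 were lower at P56 than at P1. These 5 are also among the 6 of the list that fell, so the counts are not separate. Only Cars, a transfer RNA synthetase gene, was higher (0.53 ± 0.12, edgeR adjusted p = 0.00368). That call was lost with library totals alone (0.28, edgeR adjusted p = 0.078).

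Of the 3 nearest genes of the table on each side of Kcne1, Smim11, Mrps6, D430001F17Rik, Rcan1, Runx1 and Setd4, 5 were higher at P56 than at P1 and none was lower by edgeR's test, where 30.9% of all genes were higher and 31.7% lower. Smim11 lies 32.9 kb away and was higher by 0.42 ± 0.10 (edgeR, adjusted p = 0.00346), which did not pass with library totals alone (0.18; edgeR, adjusted p = 0.0793). Rcan1, an inhibitor of calcineurin 32.5 kb away on the other side, was the only one that fell from P14 to P56, by 0.63 ± 0.14 (edgeR, adjusted p = 0.0033). Runx1, a transcription factor, went from 1.6 CPM at P1 to 7.66 and 6.21 (1.95 ± 0.26 at P56 against P1; edgeR, adjusted p = 0.000101). Of the 6 nearest to Kcnh2, which are Nupl2, Klhl7, Gm3724, Nos3, Gm15587 and Abcb8, 3 were higher and 1 lower at P56 than at P1. The lower one, Nos3, encodes the nitric oxide synthase of endothelium, lies 13.2 kb from Kcnh2 and was at 3.24, 14.4 and 1.46 CPM, a rise of 2.16 ± 0.33 and a fall of 3.31 ± 0.36 (edgeR, adjusted p = 0.00054 and 7.69e-05). The values were 0.65 and -1.2 once the marker score was added (edgeR, adjusted p = 0.00997 and 0.00314). Without it all 12 endothelial markers rose from P1 to P14, as 28.4% of all genes did, and fell from P14 to P56, as 28.5% did.

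The genes whose course over the 9 libraries was most like each of the 3 were found by the root mean square distance between log2 CPM profiles, each centred on its own mean. Nearest to Kcne1 were Igf2 and H19 at 0.848 each, then Melk at 1.104, Ptn at 1.117 and Nespas at 1.161. Igf2, a fetal growth factor, went from 71.1 CPM at P1 to 34.5 and 0.681. H19, the imprinted RNA beside it, went from 32.6 to 13.6 and 0.22 CPM. Melk is a kinase of dividing cells, Ptn a growth factor, and Nespas an imprinted antisense RNA. These 5 genes were lower at P56 than at P1 by log2 changes of -6.70, -7.20, -6.53, -5.20 and -7.59, beside -6.72 for Kcne1. Even the nearest was far from Kcne1 compared with the distances below.

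Nearest to Kcnq1 were Ntn1 at 0.047, Stk39 at 0.06, Gata4 at 0.068, Lbh at 0.069 and Ctnna3 at 0.07. Gata4, a cardiac transcription factor, was at a mean of 672, 423 and 446 CPM, and Ctnna3, a catenin of the intercalated disc, at 9400, 5500 and 6370. Like Kcnq1 these were highest at P1 and lowest at P14. Nearest to Kcnh2 were Noc2l at 0.076, Zfp316 at 0.083, Mical3 at 0.086, Zdhhc8 at 0.087 and Dgat1 at 0.088. Dgat1, an enzyme of triglyceride synthesis, was at 30.9, 32.2 and 21.3 CPM and, like Kcnh2, had its lowest P14 value in replicate 1 (23.9 CPM, against 36.0 and 36.8). Libraries share depth, cell content and age, so these distances describe the course of levels only.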

How the data were processed

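RNA was sequenced from 9 libraries of CD-1 mouse cardiomyocytes, 3 at each of 3 ages. The authors deposited 1 table of integer read counts per gene. STAR 2.4.0g1, featureCounts 1.4.2, bcl2fastq 2.17.1.14 and the GRCm38 build are named, per the submitters' processing notes. The sources used here give neither counting mode nor strand. The smallest mean count of a gene was 10.0, and a filter before deposit is possible, so genes with no row cannot be read as silent. Groups came from the labels.

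The deposited counts went into edgeR 4.0.16 (R 4.3.3) with filterByExpr (7 genes removed), TMM scaling, and quasi-likelihood fits with age as the only term over all 9 libraries. Changes are log2, with p-values adjusted by Benjamini-Hochberg over 15817 genes (threshold 0.05). SEs were taken from the fitted weights and quasi-likelihood dispersion. The biological coefficient of variation was 13.9%. Ratios within a library used exon lengths from GENCODE M21, which holds 15763 of the gene identifiers, and exact permutation tests over 1680 assignments. The p-values measure the spread between pooled libraries.

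Alternatives were DESeq2 1.42.0, RLE or upper-quartile factors, library totals alone, no filter, GC offsets, the marker score as a covariate, a replicate block, only the 6 libraries compared, and leaving out each library. For ratios they were no length, a linear scale, the block and, added after seeing the data, the gene span. Scripts were tested on simulated data. The 3 genes and all lists were chosen with earlier results of these data known. Named genes were the measured relatives in the KCNE, Kv7 and ether-à-go-go lists, up to 3 per direction with the largest called change from each other list, Kcnq1ot1, Akap9 and Kcna5, the 5 nearest profiles and the 3 nearest genes on each side. Some genes of these lists, and counts over lists that hold them, are not reported here.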

Additional observations from a re-analysis of the deposited data

How the results depend on the processing

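The falls of Kcne1 from P14 to P56 and from P1 to P56, and those of Kcnq1 from P1 to P14 and from P1 to P56, kept their direction and call under every alternative, with Kcne1 between -6.41 and -5.76 and between -7.11 and -6.45 on the log2 scale. With the marker score as a covariate, the values that lost or gained a call or turned were -0.46 for Kcne1 and 0.55 for Kcnh2 from P1 to P14, -0.18 for Kcnq1 from P14 to P56 and 0.25 for its interval difference. Among all genes, 2446 higher and 2323 lower were then called from P14 to P56, against 4356 and 4504, and 2501 and 2622 for the interval difference, against 3809 and 4107. With GC offsets Kcnq1 was at 0.47 from P14 to P56, and Kcnh2 at -0.14 from P1 to P14, -0.03 from P14 to P56, -0.18 from P1 to P56 and 0.11 for the interval difference, with an F of 1.46 for any difference among ages. Leaving out 1 library at a time, Kcnh2 ranged from -0.01 to 0.33 from P1 to P14, from -0.43 to -0.36 from P1 to P56, from -1.05 to -0.37 for the interval difference and from 4.86 to 48.1 for that F. The P1 to P56 fall was lost in all but the fits without P14 replicate 1 or 3, and the interval difference in all but the fit without P14 replicate 1. Only the fit without P56 replicate 3 lost the F test.

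Same-numbered libraries of different age had correlations of their deviations from the group means from -0.22 to 0.49, so the numbers were not taken as pairs, and the replicate block changed no call of the 3 genes. In the exact test of the ratios that keeps replicate numbers together, each adjusted p was 0.0833 (raw 0.0833, 0.0278 and 0.0556, where 0.0278 is the smallest raw p it can give), with P1 to P56 values of -6.32 for Kcne1 to Kcnq1, -6.44 for Kcne1 to Kcnh2 and 0.12 for Kcnh2 to Kcnq1.

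Of 60 called changes of other named genes, the marker score ended 22, of which 5 turned direction (Kcna5 from P1 to P14 at -0.35, and from P14 to P56 Kcnq3 at 0.42, Kcnh8 at 1.07, Usp2 at -0.23 and Cdkn1c at 0.53). Library totals alone ended 4 and GC offsets 2. The uncalled P1 to P56 change of Kcnq1ot1 turned to -0.04 with GC offsets, -0.18 with library totals and -0.04 with upper-quartile factors. The cause was not tested. With 50 reads of Kcne1 in all at P56, differences among those 3 libraries are not resolved.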
